A study of Mus musculus with 6 samples.

Results

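The genes described here are 3 metallothioneins (Mt1, Mt2 and Mt3), the metal-responsive transcription factor Mtf1, the zinc exporters Slc30a1 and Slc30a3, and the zinc importer Slc39a10. They were chosen by name as metallothionein and brain zinc transport genes, 7 of the 53640 gene symbols shared by the 6 count tables, and Mt1 was included because its difference between tau and control was among the strongest in these same data. All 7 passed the filter on low counts that left 20694 genes to test. The tau against control values therefore stand as a description with no test for these genes.

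RNA was sequenced from tissue labelled PFC of mice aged 6 months. The 2 control libraries came from C57BL/6 x C3H mice given vehicle, and the 2 tau libraries from PS19(P301S) mice given vehicle. The 2 treated tau libraries came from PS19(P301S) mice given WDR5-0103, a compound directed at WDR5, a subunit of histone H3K4 methyltransferase complexes. In PS19 mice the mouse prion promoter drives a human tau transgene that carries the P301S mutation. The labels call the libraries of a group biological duplicates; the labels used here state neither the dose nor the duration of treatment. Control and tau share vehicle, and tau and treated tau share the transgene.

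Metallothioneins are small cysteine-rich proteins that bind zinc and copper and buffer the free metal in a cell. In brain, Mt1 and Mt2 are made mainly by glia and are induced by zinc, glucocorticoids and inflammatory signals, while Mt3 is a brain form that such signals induce little. Mtf1 senses free zinc and binds metal response elements (MREs) in front of Mt1, Mt2 and Slc30a1. Slc30 proteins move zinc out of the cytosol, and Slc30a3 loads it into synaptic vesicles of glutamatergic neurons; Slc39 proteins bring zinc in.

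The promoters of the metallothioneins and of Slc30a1 are shown because MREs are the elements through which Mtf1 acts, and the values below turn on these genes. RefSeq windows (GRCm38.p6) of 250 bases before to 50 bases after a transcript start were found for all 7 genes, 9 windows in all. MRE cores were searched on both strands as TGCACNC and TGCGCNC, with overlapping matches counted separately. Capitals mark the matches in the upstream stretches, each printed 5′ to 3′ along the gene's strand.
Mt1 upstream, chr8:94178839-94179088, strand +: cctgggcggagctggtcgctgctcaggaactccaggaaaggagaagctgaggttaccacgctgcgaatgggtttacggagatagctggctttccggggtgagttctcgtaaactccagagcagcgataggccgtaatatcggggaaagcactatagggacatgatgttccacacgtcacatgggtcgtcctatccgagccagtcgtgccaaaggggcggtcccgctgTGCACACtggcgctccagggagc
Mt2 upstream, chr8:94172368-94172617, strand +: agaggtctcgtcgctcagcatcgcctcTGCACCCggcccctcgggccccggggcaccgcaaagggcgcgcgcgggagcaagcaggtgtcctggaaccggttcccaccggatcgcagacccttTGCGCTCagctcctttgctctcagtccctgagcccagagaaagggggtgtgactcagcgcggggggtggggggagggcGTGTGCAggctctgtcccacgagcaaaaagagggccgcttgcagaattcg
Mt3 upstream, chr8:94152357-94152606, strand +: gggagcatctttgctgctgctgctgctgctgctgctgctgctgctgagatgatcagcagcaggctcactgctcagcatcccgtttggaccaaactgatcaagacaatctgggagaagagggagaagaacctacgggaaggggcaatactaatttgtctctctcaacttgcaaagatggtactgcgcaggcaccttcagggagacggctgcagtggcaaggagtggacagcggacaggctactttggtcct
Slc30a1 upstream, chr1:191906531-191906780, strand +: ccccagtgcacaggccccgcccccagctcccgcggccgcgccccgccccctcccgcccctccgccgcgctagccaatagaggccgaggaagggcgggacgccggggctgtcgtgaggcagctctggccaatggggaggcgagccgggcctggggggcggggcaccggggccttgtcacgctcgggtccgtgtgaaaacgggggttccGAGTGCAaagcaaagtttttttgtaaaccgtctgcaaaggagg

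Further matches lie at or after the RefSeq start that sets each window, and short stretches around them follow, again with the core in capitals.
Mt1 at the start, chr8:94179088-94179117, strand +: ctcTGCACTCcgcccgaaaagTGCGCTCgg
Mt2 at the start, chr8:94172619-94172648, strand +: gtcGTGCGCAggcccaggggcgtgtgctgg
Mt3 at the start, chr8:94152631-94152656, strand +: cagTGCACACacacggagagcaggcg
Slc30a1 at the start, chr1:191906808-191906830, strand +: gccGAGCGCAgtcgccgcggacg

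Mt2 had 4 matches in its 300-base window, and 4 or more were found in 0.517% of 32851 RefSeq windows of that length. Mt1 had 3 matches (3 or more in 1.97% of windows) and Slc30a1 had 2 (2 or more in 7.11%). Mt3 and 1 of the 2 Slc30a3 starts had 1 match each, and 25.7% of windows held at least 1. Mtf1, both Slc39a10 starts and the other Slc30a3 start had none. The antioxidant response core TGACNNNGC, which overlapped no MRE core here, was present once in Mt2 and once in Slc30a1 and in 12.4% of windows. A match of letters does not show binding. Counts and positions hold for these windows only, and matches beyond them were not counted. Relative to the RefSeq start, the GENCODE gene start lies at 46 bases for Mt2 and at -445 bases for Mtf1 (negative is before). It lies at 32924 and -39234 bases for the 2 Slc39a10 starts, and at -14710 bases for the Slc30a3 start without a match. Which start is used in this tissue was not determined.

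**Figure D1:**
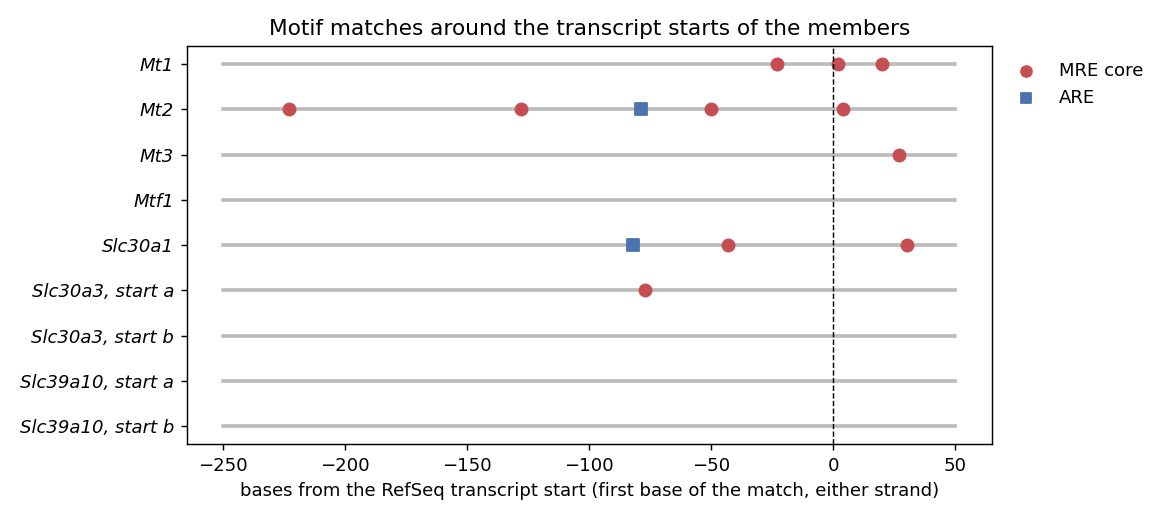
Matches to the MRE core (circles) and the antioxidant response core (squares, ARE) along each 300-base window; the x axis is the distance in bases from the RefSeq transcript start, which counts as 0, to the first base of the match, and start a and start b are the 2 annotated starts of a gene. Within these windows Mt2 has 4 MRE cores, Mt1 3, Slc30a1 2, and Mt3 1, which lies after the RefSeq start.

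Mt3, Mt2 and Mt1 lie in that order on the plus strand of chromosome 8 within 27.7 kb (GENCODE M21 on the mm10 assembly). Mt3 spans 94152607 to 94154146, Mt2 94172664 to 94173568 and Mt1 94179082 to 94180327. Mtf1 lies on chromosome 4 (124802104 to 124849800), Slc30a1 on chromosome 1 (191906767 to 191913247), Slc30a3 on chromosome 5 (31086106 to 31108237) and Slc39a10 on chromosome 1 (46807544 to 46892852). No 50-base stretch of the transcripts of Mt1, Mt2, Mt3, Mtf1, Slc30a1 or Slc30a3 occurs in another gene's transcripts, and 0.447% of those of Slc39a10 do.

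The libraries held 17690811 to 34774643 counts. The 2 treated tau tables were made on a symbol list that differs from that of the other 4 tables, but all members stand in both lists. The library labelled control 1 goes against its label in Prnp, whose promoter drives the transgene: 1654 CPM (counts scaled to library size by TMM), against 876 CPM in control 2 and 1472 to 1876 CPM in the 4 transgenic libraries. Control 1 also held 134.9 CPM of 6 olfactory bulb markers in sum, against 5.29 to 8.60 CPM elsewhere. Excitatory cortical neuron markers were present in every library, with none of 10 at 0. Tau 2 had the highest sums of oligodendrocyte markers (5800 CPM, 1532 to 3096 CPM elsewhere) and striatal neuron markers (400.5 CPM, 179 to 239 CPM elsewhere). Xist and Ddx3y levels were those of females in control 2 and both tau libraries and of males in control 1 and both treated tau libraries, and between tau and treated tau the treatment cannot be told apart from sex. In bulk tissue, fewer cells of a type and less RNA per cell cannot be told apart either.

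Across the 6 libraries Mt2 and Mt1 varied the most among the members, and Slc30a3 the least. The ratio of the highest to the lowest library in CPM was 2.18 for Mt2, 1.72 for Mt1, 1.43 for Mtf1 and 1.32 for Mt3. It was 1.24 for Slc39a10, 1.19 for Slc30a1 and 1.13 for Slc30a3. Over the 10872 tested genes with a mean of at least 8 CPM, the median ratio was 1.25 and the 90th percentile 1.60. Mt2, itself under 8 CPM on average, and Mt1 lay above that percentile, Mtf1 and Mt3 between it and the median, and the 3 transporters at or below the median; these spreads were not tested against each other. Tau 2 was the highest library for Mt1, Mt2 and Mt3.

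**Figure D2:**
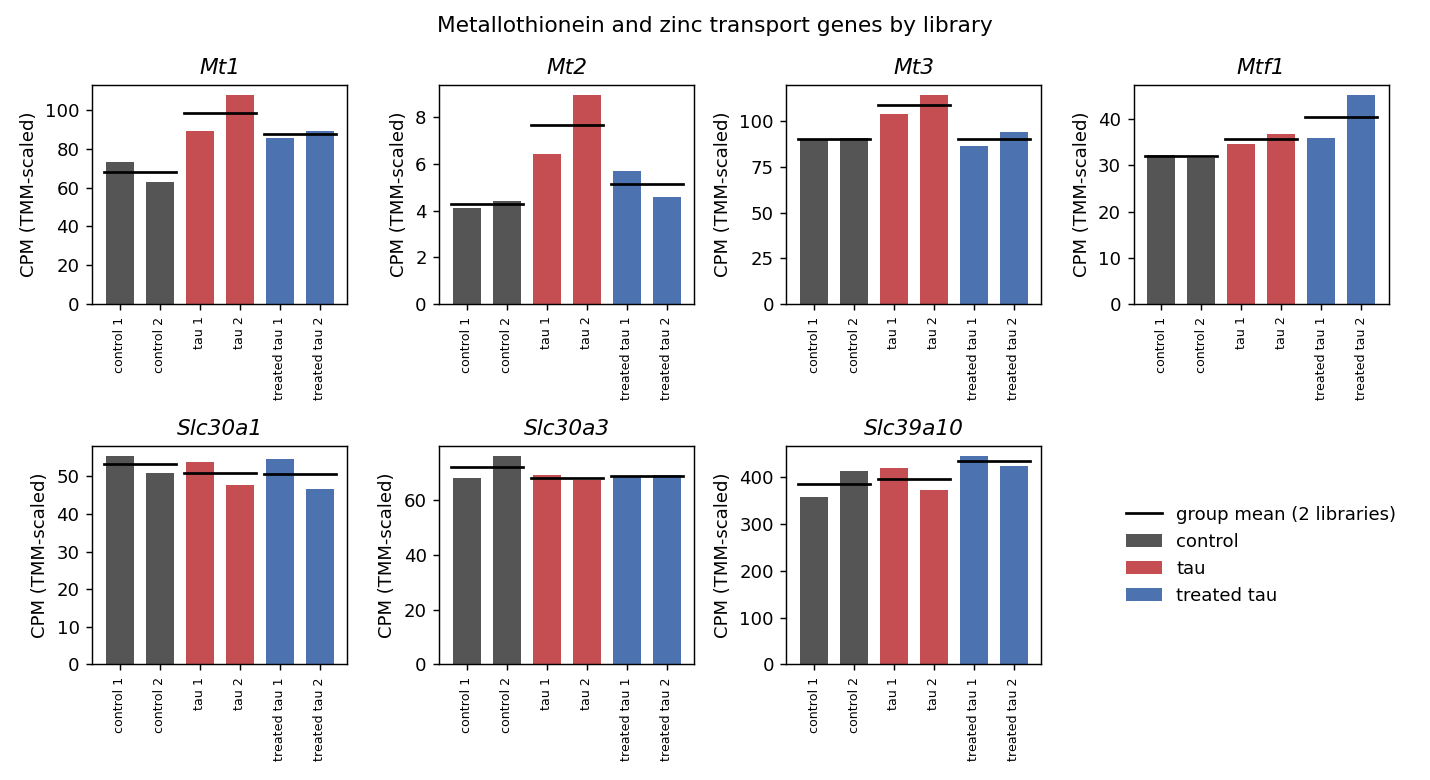
TMM-scaled CPM (y axis, from 0, with its own range in each panel) of the 7 genes in the 6 libraries (x axis); bars are single libraries coloured by group and black lines are the means of 2 libraries. The tau 2 bar is the tallest for Mt1 (108 CPM), Mt2 (8.94 CPM) and Mt3 (114 CPM), while Slc30a1 and Slc30a3 are nearly level.

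Levels between genes were compared as RPKM, CPM per kilobase of annotated exon, averaged over all 6 libraries. The length merges the exons of all annotated transcripts of a gene. For Mt1 it is 1246 bases, the whole span of the gene, introns included. A shorter transcript length would raise its RPKM, so ranks and ratios that involve Mt1 depend on this choice. The other members also have more than 1 annotated transcript, such as Mt3 (3 transcripts, 1066 bases) and Mt2 (2 transcripts, 588 bases). Their ranks depend on the merged length too. Mt3 was highest at 90.8 ± 9.79 RPKM (SD, n = 6 libraries of 3 groups), followed by Mt1 at 67.9 ± 12.4 and Slc39a10 at 66.4 ± 5.41 RPKM. Slc30a3 followed at 24.5 ± 1.12, Slc30a1 at 9.83 ± 0.706, Mt2 at 9.69 ± 3.08 and Mtf1 at 4.05 ± 0.548 RPKM. By these lengths Mt1 and Slc39a10 did not differ beyond their spread, nor did Slc30a1 and Mt2. The ranges of Mt3 and Mt1 over libraries overlapped (81.3 to 107 and 50.3 to 86.4 RPKM). Within each library, though, Mt1 was below Mt3, at 0.589 to 0.846 of its level per length and 0.688 to 0.989 of its counts. Mt1 exceeded Mt2 per length by 5.68-fold in tau 2 to 9.20-fold in treated tau 2.

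Mt1, an inducible zinc and copper buffer, had 73.1 CPM in control 1 and 62.6 CPM in control 2. It stood at 89.4 and 108 CPM in tau and at 85.7 and 89.4 CPM in treated tau. Both tau libraries and both treated tau libraries lay above both controls, and the higher treated library nearly tied with the lower tau library. Tau against control gave a log2 fold change of 0.53 ± 0.11 (SE; 1.45-fold), the value through which Mt1 was chosen. Leaving out a library gave 0.65 (the library labelled control 1), 0.43 (control 2), 0.67 (tau 1) and 0.40 (tau 2). By Xist and Ddx3y, female libraries alone are compared without control 1, and a male control with female tau libraries without control 2.

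Mt2, the inducible isoform next to Mt1, had 4.10 and 4.43 CPM in control, 6.41 and 8.94 CPM in tau, and 5.70 and 4.59 CPM in treated tau. These rest on few counts, from 104 in control 1 (95% Poisson interval 85.0 to 126, counting error only) to 195 in treated tau 1 (169 to 224), the most of any library. The tau libraries were above all others, and every treated tau library lay between control and tau. The log2 fold change was 0.82 ± 0.23 (SE; 1.76-fold) for tau against control, 0.77 without the library labelled control 1 and 0.59 without tau 2.

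Mt3, the brain isoform, had 90.3 and 91.0 CPM in control, 104 and 114 CPM in tau, and 86.6 and 94.2 CPM in treated tau. Again both tau libraries were above the other 4, while control and treated tau overlapped. Tau against control gave a log2 fold change of 0.27 ± 0.09 (SE; 1.20-fold), with 0.26 without the library labelled control 1 and 0.20 without tau 2.

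Mtf1, the zinc-sensing activator, had 32.3 and 31.6 CPM in control, 34.7 and 36.7 CPM in tau, and 35.9 and 45.2 CPM in treated tau. Treated tau 2 was the highest library, and both tau and both treated tau libraries lay above both controls. Tau against control gave 0.16 ± 0.13 on the log2 scale (SE).

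Slc30a1, the plasma membrane zinc exporter, had 55.4 and 51.0 CPM in control, 53.8 and 47.8 CPM in tau, and 54.6 and 46.6 CPM in treated tau. Slc30a3, the transporter of synaptic vesicles, had 68.0 and 75.8 CPM in control, 68.8 and 66.9 CPM in tau, and 68.5 and 69.0 CPM in treated tau. For both exporters the libraries of all 3 groups overlapped. Their log2 fold changes for tau against control were -0.06 ± 0.11 and -0.08 ± 0.09 (SE).

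Slc39a10, an importer of the plasma membrane, had 357 and 413 CPM in control, 418 and 372 CPM in tau, and 444 and 423 CPM in treated tau. Control and tau overlapped, and both treated tau libraries were above the other 4. Tau against control gave a log2 fold change of 0.04 ± 0.09 (SE).

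Counted over the members in tau against control, 4 of 7 had both tau libraries above both controls and 0 had both below; 41.6% of all tested genes did not overlap between these groups, and 20.3% were higher in both tau libraries than in both controls. No member passed in the edgeR quasi-likelihood test, where 0 of 20694 genes (0%) passed. At an unadjusted p under 0.05 stood 3 members (Mt1, Mt2 and Mt3, all higher) and 9.95% of all genes (4.31% higher). DESeq2 called 1 member, Mt1, the gene chosen on this contrast, among 55 of 12473 genes, and limma-voom called 0 members. Because Mt1 was chosen on this contrast and the others with its results known, the counts carry no test of the members.

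The comparison of treated tau with tau sets WDR5-0103 beside vehicle in transgenic tissue, where treatment cannot be told apart from sex. Mt3 and Mt2 were lower in both treated libraries than in both tau libraries, Slc39a10 was higher in both, and the other 4 members overlapped. Mt1 overlapped only through a near tie, at 89.41 CPM in treated tau 2 and 89.40 CPM in tau 1. For Mt3 the group means were 90.4 ± 5.36 CPM with treatment and 109 ± 7.32 CPM with vehicle (SD, n = 2 libraries a group), and the log2 fold change was -0.27 ± 0.09 (SE). Mt2 had 5.14 ± 0.787 and 7.68 ± 1.79 CPM, a log2 fold change of -0.53 ± 0.22. Neither passed the quasi-likelihood test of edgeR over all genes (adjusted p = 0.189 for Mt3 and 0.355 for Mt2). For Mt1 the value was -0.17 ± 0.11 (adjusted p = 0.662 in edgeR). Without tau 2 the values were -0.20 for Mt3, -0.30 for Mt2 and -0.03 for Mt1. Mt1 came to -0.30 without tau 1 and to -0.39 with a sex term in the fit. As both tau libraries read as female and both treated libraries as male, only control 1 against control 2 sets that term. Control 1 is the library that goes against its label in Prnp. These differences share the tau libraries with the contrast that chose Mt1.

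The regulator and the transporters did not pass between treated tau and tau either. Slc39a10 differed by 0.13 ± 0.09 in log2 (edgeR adjusted p = 0.674; 95% interval -0.07 to 0.34), and Mtf1 0.18 ± 0.12 (adjusted p = 0.672). The Slc39a10 value was 0.056 without tau 2 and 0.22 without tau 1. The Mtf1 value was 0.01 without treated tau 2 and 0.35 without treated tau 1. Slc30a1 (-0.01 ± 0.11, 95% interval -0.26 to 0.24) and Slc30a3 (0.02 ± 0.09, -0.18 to 0.22) had intervals on both sides of 0. The edgeR test called 0 of 7 members, against 3.76% of all genes tested. With symbols of predicted form (such as Gm plus digits), which no member has, left out of the fit, it called 46 of 14565 genes. At an unadjusted p under 0.05 stood 2 of 7, both lower, against 12% of all genes (4.44% lower), and DESeq2 and limma-voom called 0 members. In 3 of 7 members the libraries did not overlap (1 higher, 2 lower), against 41.3% of all genes (21.2% higher, 20.1% lower), so the members' share is near the background.

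Treated tau against control sets the treated libraries beside those labelled control, of which control 1 has Prnp at the transgenic level. Both treated libraries and control 1 read as male and control 2 as female, so sex is unbalanced here too. Mt1 was 1.29-fold higher (87.6 ± 2.63 against 67.9 ± 7.42 CPM; SD, n = 2 libraries a group), which on the log2 scale is 0.37 ± 0.11 (SE) and did not pass in edgeR (adjusted p = 0.127). Mtf1 was 1.26-fold higher (40.5 ± 6.57 against 32.0 ± 0.487 CPM), a log2 fold change of 0.34 ± 0.12 (edgeR adjusted p = 0.202). The Mt2 difference was 0.28 ± 0.23 on the log2 scale (adjusted p = 0.610 in edgeR) and that of Mt3 -0.0045 ± 0.09 (95% interval -0.20 to 0.19).

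The importer Slc39a10 had a log2 fold change of 0.17 ± 0.09 over control (edgeR adjusted p = 0.406), Slc30a1 one of -0.07 ± 0.11 and Slc30a3 one of -0.06 ± 0.09. With 1 library left out the Slc39a10 value ran from 0.074 (without the library labelled control 1) to 0.28 (without control 2). The edgeR test called 0 of 7 members, against 4.22% of all genes. With symbols of predicted form left out of the fit, it called 42 of 14565 genes. At an unadjusted p under 0.05 stood 2 of 7 (Mt1 and Mtf1, both higher), against 16.3% of all genes (8.17% higher), and DESeq2 and limma-voom called 0 members. Libraries did not overlap for 4 of 7 members, all higher, against 46.3% of all genes (23.0% higher). Without the library labelled control 1, which leaves a female control beside male treated libraries, the Mt1 value was 0.49. Without control 2, which leaves male libraries only, it was 0.26. The Mtf1 value was 0.17 without treated tau 2 and 0.51 without treated tau 1, and the Mt2 value was 0.42 and 0.11. This contrast shares its control libraries with tau against control and its treated libraries with treated tau against tau.

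**Figure D3:**
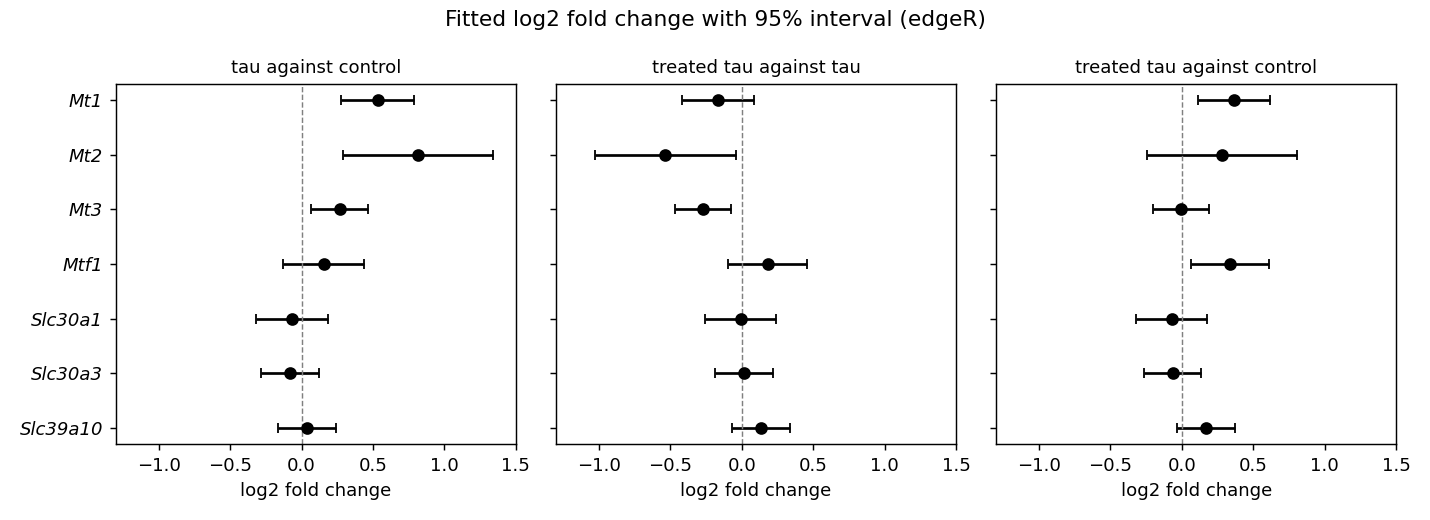
Fitted log2 fold changes (x axis) of the 7 genes (y axis) in the 3 comparisons, with 95% intervals from the edgeR fit over 6 libraries. Mt1, Mt2 and Mt3 lie right of 0 in tau against control (0.53, 0.82 and 0.27), Mt2 and Mt3 left of 0 in treated tau against tau (-0.53 and -0.27), and the intervals of Slc30a1, Slc30a3 and Slc39a10 include 0 in every panel.

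**Figure D4:**
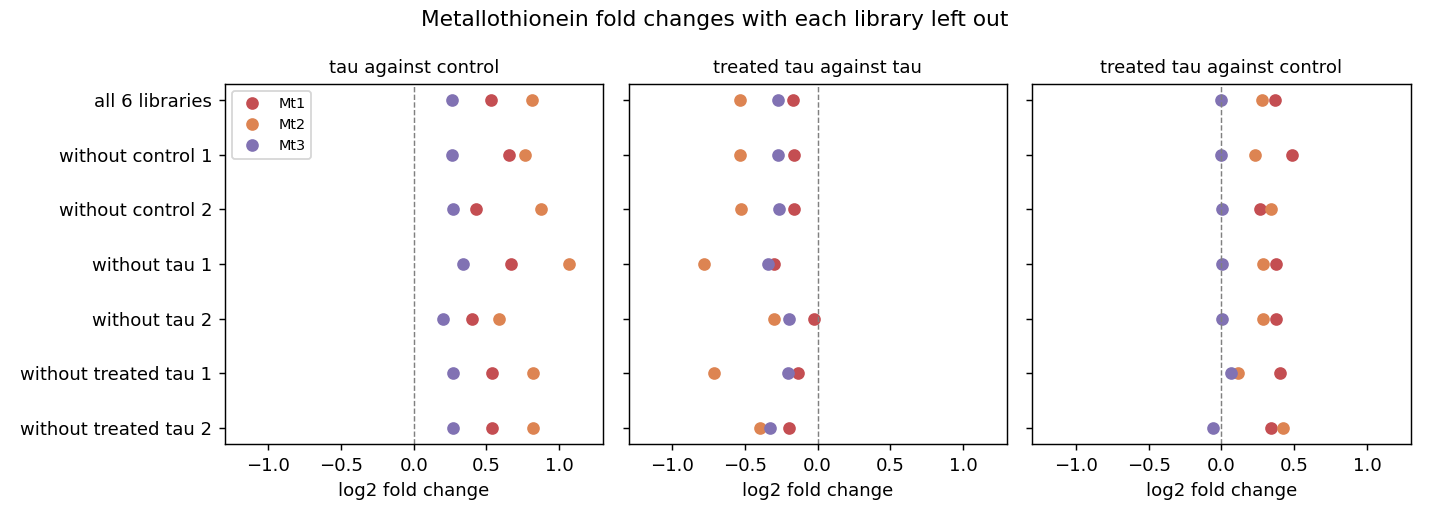
Fitted log2 fold changes (x axis) of Mt1, Mt2 and Mt3 with all 6 libraries and with each library left out in turn (y axis), in the 3 comparisons. Tau against control stays above 0 for these 3 genes in every row, and Mt1 in treated tau against tau comes to -0.03 without tau 2.

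No other gene of zinc handling passed the test in any comparison. The list held 8 further Slc30 exporters, 13 further Slc39 importers and 11 genes of zinc binding, sensing and vesicle sorting, 32 in all, of which 28 were tested. For tau over control 17 were above 0 and 11 below (median log2 fold change 0.05; over all genes tested 49.4% were above 0 and the median was -0.0030). Treated tau over tau gave 11 above and 17 below (median -0.03; 48.7% and -0.0060 over all genes). Treated tau over control gave 18 and 10 (median 0.02; 48.8% and -0.0068 over all genes). The edgeR test called 0 of the 28 in any of the 3 comparisons, as did DESeq2 and limma-voom. At an unadjusted p under 0.05 stood 1 of them, Ap3s2, a subunit of the AP-3 complex that sorts vesicle cargo, in treated tau against tau (0.20 ± 0.09).

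Per length, the AP-3 subunit Ap3m2 was the highest of these genes at 42.1 ± 3.35 RPKM (SD, n = 6 libraries). Among the exporters, Slc30a4, which acts in intracellular vesicles, had 28.7 ± 1.79 RPKM and Slc30a9 19.4 ± 0.729 RPKM. Slc39a12, an importer of astrocytes, had 16.2 ± 0.910 RPKM. Mt4, a metallothionein of squamous epithelia, and Slc30a8, the exporter of pancreatic insulin granules, had 0 counts in all 6 libraries. The upper 95% Poisson limit of a count of 0 is 3.69 counts in a library.

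By the smallest p of each list, tau against control gave Slc30a4 at 0.12 ± 0.08 and Slc30a2 at -0.55 ± 0.41 among exporters. Among importers it gave Slc39a2 at -0.78 ± 0.35 and Slc39a3 at -0.14 ± 0.11, and among the sorting genes the AP-3 subunits Ap3b2 at 0.14 ± 0.08 and Ap3b1 at 0.12 ± 0.09 (log2 fold change ± SE). Treated tau against tau gave Slc30a2 at 0.60 ± 0.40, Slc30a6 at -0.17 ± 0.19, Slc39a3 at 0.24 ± 0.11, Slc39a11 at -0.34 ± 0.19 and Ap3m1 at -0.14 ± 0.10. Treated tau against control gave Slc30a10, an exporter of zinc and manganese, at -0.34 ± 0.18, Slc30a4 at 0.14 ± 0.08, Slc39a2 at -0.67 ± 0.32, Slc39a12 at 0.15 ± 0.09, Ap3s2 at 0.18 ± 0.09 and Ap3m1 at -0.09 ± 0.10. None of these differences passed in edgeR, where the smallest adjusted p of the 28 genes was 0.506 for tau against control, 0.385 for treated tau against tau and 0.352 for treated tau against control.

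Mt1 and Mt2 are glucocorticoid-induced, so 15 other genes of that response were read beside them. Their sum was 568 and 556 CPM in control, 625 and 987 CPM in tau, and 710 and 678 CPM in treated tau, so the library with the highest Mt1 and Mt2, tau 2, also had the highest sum. In tau against control 14 of the 15 were above 0 (median 0.40), led by Tsc22d3, a leucine zipper repressor (0.76 ± 0.21), and Plin4, a lipid droplet protein (1.98 ± 0.57). Between treated tau and tau, 12 of 15 were below 0 (median -0.16), with Pdk4, a pyruvate dehydrogenase kinase, at -0.73 ± 0.28 and Plin4 at -1.03 ± 0.49. Between treated tau and control, 11 of 15 were above 0 (median 0.27), with Sult1a1, a sulfotransferase, at 0.64 ± 0.21 (0.42 without the library labelled control 1) and Klf9 at 0.33 ± 0.11. The edgeR test called 0 of the 15 in each comparison, and DESeq2 and limma-voom called 0. At an unadjusted p under 0.05 stood 7, 1 and 4 of the 15, against 9.95%, 12% and 16.3% of all genes. Without tau 2 the list read otherwise, with 10 of 15 above 0 between tau and control (median 0.15) and 13 of 15 above 0 between treated tau and tau (median 0.11). Tsc22d3 and Plin4 in tau against control came to 0.34 and 0.99 without tau 2, and Plin4 in treated tau against tau to -0.044. Pdk4 in treated tau against tau was -0.18 without tau 2, and -1.20 without tau 1, when tau 2 alone stood for the tau group. Pdk4 had 9.86 CPM in tau 1 and 19.9 CPM in tau 2. Without control 1 and tau 2, which leaves a single control and a single tau library, Tsc22d3 had 0.53 in treated tau against control.

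Markers of astrocytes, a main source of Mt1 and Mt2 in brain, differed little between libraries. The 10 markers summed to 5034 and 5486 CPM in control, 5492 and 5233 CPM in tau and 5240 and 5554 CPM in treated tau, with none at 0. The median log2 fold change of these markers was 0.03 between tau and control and -0.03 between treated tau and tau. Oligodendrocyte markers, with none of 10 at 0, were highest in tau 2 (median 0.97 above the mean of the 6 libraries in log2), as were striatal markers (1.09). The astrocyte median was also highest there (0.08), though the summed CPM of these markers was highest in treated tau 2. Microglial markers were also highest in tau 2, at 411 CPM in sum against 334 to 382 CPM elsewhere (median 0.19), with none of 10 at 0 and 9 of 10 above 0 in tau against control (median 0.20). The part of these cell types, of the glucocorticoid-induced genes and of sex in the metallothionein values was not tested, beyond the values without tau 2 given above.

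**Figure D5:**
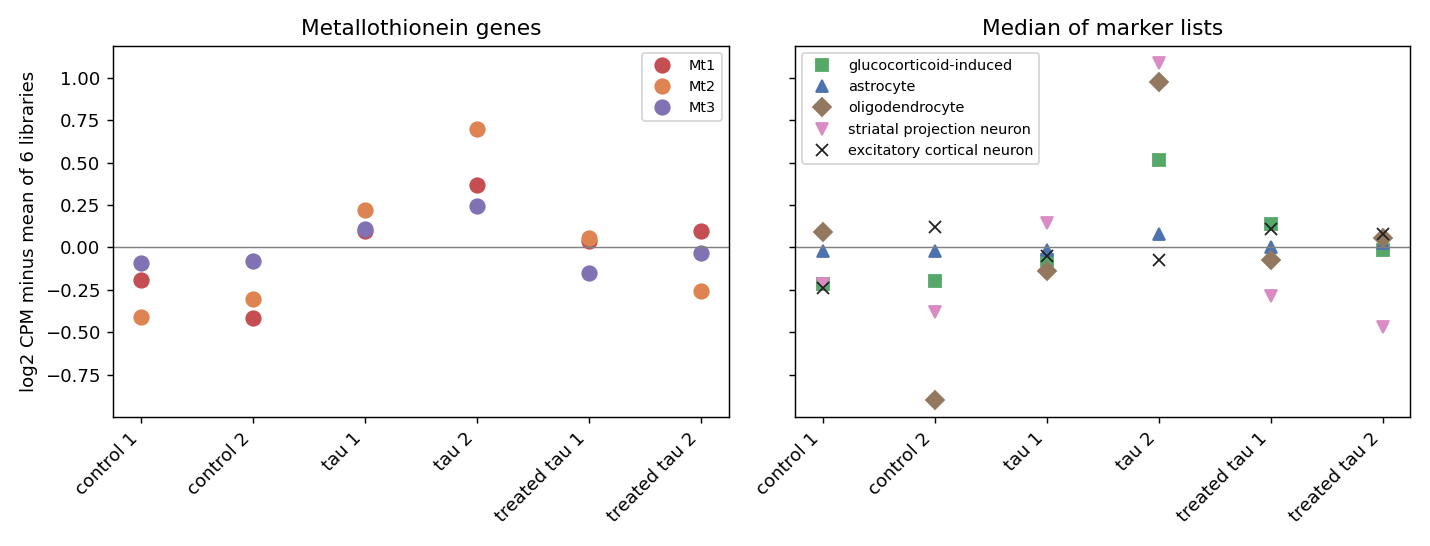
Difference of log2 CPM from the mean of the 6 libraries (y axis) in each library (x axis), for Mt1, Mt2 and Mt3 (left) and as the median of marker lists (right). Tau 2 is the highest library for all 3 metallothioneins (0.37, 0.70 and 0.25) and for the glucocorticoid-induced (0.52), oligodendrocyte (0.97) and striatal (1.09) lists, while the astrocyte list stays between -0.02 and 0.08.

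Targets of Nrf2, the factor that acts through antioxidant response elements, held the only call among the pathway lists. Gstm1, a glutathione transferase, had 61.1 and 61.6 CPM in control, 82.0 and 87.6 CPM in tau and 62.5 and 53.2 CPM in treated tau. As with Mt3, both tau libraries were above the other 4. Gstm1 fell in treated tau against tau (log2 fold change -0.55 ± 0.10, edgeR adjusted p = 0.0132). The call was lost without tau 1 (-0.60, adjusted p = 0.0653), tau 2 (-0.50, 0.102) or treated tau 2 (-0.44, 0.151). It was also lost with a sex term, which the 2 controls alone set (-0.54, adjusted p = 0.26 in edgeR). Leaving symbols of predicted form out of the edgeR fit lost it too (-0.54, adjusted p = 0.0900), so the fold moved less than the p. Of its 50-base stretches 18.9% occur in other genes, among them Gstm3 and the pseudogene Gstm2-ps1, so its counts are uncertain. Of the 9 Nrf2 targets tested, 8 were above 0 in tau against control (median 0.14) and 5 below 0 in treated tau against tau (median -0.09), where Gstm1 was the 1 that passed. DESeq2 also called Gstm1 in tau against control (0.47, adjusted p = 0.0262), which edgeR did not.

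The other Nrf2 targets of smallest p did not pass in edgeR over all 6 libraries. Gsta4, another glutathione transferase, had a log2 fold change of 0.25 ± 0.15 in tau against control, next to 0.47 ± 0.10 for Gstm1. Without control 1 and tau 2, when tau was the single library tau 1, Gsta4 had -0.47 in treated tau against tau. Gsta4 stood at 50.8 CPM in tau 1 and 35.3 CPM in tau 2. In treated tau against control Gclm, a subunit of the enzyme that starts glutathione synthesis, had 0.30 ± 0.11 (adjusted p = 0.188) and Txnrd1, a thioredoxin reductase, 0.25 ± 0.10 (adjusted p = 0.271). With 1 library left out these ran from 0.18 to 0.45 for Gclm and from 0.12 to 0.39 for Txnrd1.

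The genes most like a member were read as a description, by Pearson's r of log2 CPM over the 6 libraries among 10066 named genes with an average log2 CPM of at least 3. All share libraries, and with 6 points and so many genes high values are found for any gene. For Mt1 they were Pak2 (0.994), Fez1 (0.992), Fuca2 (0.991), Flii (0.989) and Ndn (0.988). For Mt3 they were Sox8 (0.993), Atp5j2 (0.990), Lin37 (0.989), Cdc5l (0.987) and Tomm7 (0.986). For Slc30a3 they were Tmem184b (0.990), Rbm5 (0.986), Ubald1 (0.984), Zfp821 (0.982) and Hrh3 (0.981). Among the members, r was 0.82 for Mt1 with Mt2, 0.71 for Mt1 with Mt3 and 0.83 for Mt2 with Mt3, and -0.80 for Mt1 with Slc30a3.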

How the data were processed

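Each library has 1 deposited table of raw counts of reads by gene symbol, without normalization. Per the labels' protocols, libraries were strand-specific after depletion of ribosomal RNA, and Cutadapt trimming preceded TopHat2 alignment against RefSeq mRNAs of mouse. The submitters' processing notes also name SAMtools, featureCounts, edgeR and mm10. How strand and multiply aligned reads were handled, and with which versions, is not given in the sources used here. After filterByExpr (minimum count 10) on the symbols shared by all tables and TMM scaling, counts were fitted in 1 model over 6 libraries with the edgeR 4.0.16 quasi-likelihood test (two-sided, R 4.3.3), which left 3 residual degrees of freedom. Adjusted p is the Benjamini-Hochberg value over 20694 genes, called under 0.05. Exon lengths and positions came from GENCODE M21. Alternatives used DESeq2 1.42.0 and limma 3.58.1, other filters, scalings and samples. The script was tested on simulated data. Members, gene lists, the naming rule and tests were chosen with earlier results of these data known. Named beside the members were called genes of each pathway list (up to 4) or the 2 of smallest p, and the 5 genes most correlated with Mt1, Mt3 and Slc30a3. With 2 libraries per group, edgeR moderates each gene's spread between these libraries with that of other genes. Its p-values set a difference against this moderated spread and do not measure the spread itself.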

Additional observations from a re-analysis of the deposited data

How the results depend on the processing

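Of 17 alternatives, 1 was chosen after seeing the data (control 1 and tau 2 left out together). It left a single control and a single tau library, so these groups had no replicate spread in that fit. Leaving out any 1 library does the same to its group. Counting error is widest, among the members, for Mt2, which has 104 to 195 counts a library. Members called stayed at 0 except for 1 in tau against control with DESeq2 (Mt1, 55 genes called overall against 0 with edgeR) and 1 in treated tau against control without control 1 and tau 2 (Mt1, 0.49, adjusted p = 0.00903 in edgeR). The cause was not tested. That setting called 130 genes in tau against control. Genes called in treated tau against tau numbered 779, against 46 when symbols of predicted form were left out and 166 with a sex term. That term is set by control 1 against control 2 alone. In treated tau against control 873 were called, against 42 without predicted symbols. With 1 library left out, genes called ranged from 0 to 98 (98 without control 2, 9 without tau 2), from 355 to 840 and from 494 to 816 in tau against control, treated tau against tau and treated tau against control, and members called were 0 throughout.

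Signs changed for member values near 0. They also changed for Gsta4, Slc30a6 and Osmr, whose values over all 6 libraries were further from 0 (0.25, -0.17 and -0.31 in the comparisons named below). With 1 library left out, ranges were -0.15 to 0.018 (Slc30a1) and -0.060 to 0.15 (Slc39a10) in tau against control, -0.12 to 0.10 (Slc30a1) in treated tau against tau, and -0.059 to 0.063 (Mt3), -0.14 to 0.021 (Slc30a3) and -0.19 to 0.043 (Slc30a1) in treated tau against control. Gsta4 came to -0.048 to 0.47 in tau against control, Slc30a6 to -0.34 to 0.087 in treated tau against tau and Osmr to -0.65 to 0.15 in treated tau against control, where Osmr was 0.15 without control 1 and tau 2. That setting gave 0.079 for Slc30a1 in tau against control and -0.00061 for Slc30a3 in treated tau against tau. With a sex term, Slc39a10 in tau against control was -0.063, and in treated tau against control Mt3 was 0.0013 and Slc30a3 0.017. The controls alone set that term, so these values repeat closely those with a control left out. Slc39a10 was -0.060 without control 1, and without control 2 Mt3 was 0.0059 and Slc30a3 0.021. With no filter, Slc30a1 in treated tau against tau was 0.0080 and Mt3 in treated tau against control 0.013. Without predicted symbols Slc30a1 in treated tau against tau was 0.0025, and with DESeq2 Mt3 in treated tau against control was 0.0062.

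The replicate numbers are shared by the groups only as numbers: same-numbered deviations correlated at 0.010, -0.0080 and 0.073 across genes. With the replicate block, 0, 709 and 796 genes and 0 members were called in the 3 comparisons.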

Other observations

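Metals other than zinc were read through 13 copper and iron genes, all tested. Between treated tau and tau, 8 were below 0 (median log2 fold change -0.18, against -0.0060 over all genes), with Ftl1, the ferritin light chain that stores iron, at -0.41 ± 0.11 (SE) and Slc40a1, the iron exporter ferroportin, at -0.45 ± 0.13. Neither passed in edgeR (adjusted p = 0.104 and 0.121). In tau against control 7 were above 0 (median 0.01), with the ferritin genes Fth1 at 0.28 ± 0.09 (0.13 to 0.42 with 1 library left out) and Ftl1 at 0.27 ± 0.11. Slc40a1 was also lower in treated tau against control, at -0.44 ± 0.13 (edgeR adjusted p = 0.105), next to Atp7b, a copper exporter, at -0.73 ± 0.30 (adjusted p = 0.255; -1.22 to -0.42 with 1 library left out).

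Of 8 tested reactive astrocyte genes, 5 were above 0 in tau against control (median 0.018), 2 between treated tau and tau (median -0.23) and 2 between treated tau and control (median -0.13). Gfap, the intermediate filament of astrocytes, had a log2 fold change of 0.69 ± 0.21 in tau against control and -0.56 ± 0.20 in treated tau against tau (edgeR adjusted p = 0.264). Without tau 2 these were 0.27 and -0.14. Without tau 1, when tau 2 alone stood for the tau group, they were 1.03 and -0.90. Gfap had 66.1 CPM in tau 1 and 112 CPM in tau 2. Vim, another intermediate filament, had 0.28 ± 0.18 and -0.37 ± 0.18, the second ranging from -0.73 to -0.098 with 1 library left out. Below 0 in tau against control were Timp1 (-0.75 ± 0.57), Cd44 (-0.33 ± 0.43) and S1pr3 (-0.16 ± 0.19). Between treated tau and control, Cd44, a hyaluronan receptor, was at -0.95 ± 0.44 and Osmr, a cytokine receptor, at -0.31 ± 0.28. The Cd44 value was -0.55 without control 2 and -1.26 without control 1 and tau 2. That last setting, which leaves a single control and a single tau library, gave Cd44 -1.17 in treated tau against tau. The edgeR test called 0 of these 8 and 0 of the 13 metal genes in the 3 comparisons over all 6 libraries.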
